A study of Homo sapiens with 2 samples.

Results

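Pseudogene copies of 2 abundant messenger RNAs were examined in HEK293T cells: every gene with a row in the tables of both libraries whose GRCh37 symbol was EEF1A1P or GAPDHP followed by a number. The rule gave 112 genes of 57736, of which 48 were named for EEF1A1 and 64 for GAPDH. It used the symbol alone and no measured value. The annotation held 114 such genes, and EEF1A1P42 and GAPDHP41 had no row in the tables. HEK293T is a line of human embryonic kidney cells transformed with adenovirus DNA that also carries the SV40 large T antigen. The cells were untreated and labelled wild type, and poly(A)+ RNA was sequenced in 2 replicate libraries of 50-base reads, which formed 1 group. The labels did not say whether the replicates came from separate cultures, so the spread between them may be technical, and there was no second condition to compare.

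A processed pseudogene arises when a messenger RNA is reverse transcribed and inserted back into the genome, which leaves a copy without introns and usually without the promoter of its parent. EEF1A1 encodes the elongation factor that carries aminoacyl-tRNA to the ribosome, and GAPDH encodes a glycolytic enzyme that is often used as a reference gene. Both are expressed at high level in nearly every cell, and both have many such copies. A read from a copy that has changed little can be placed equally well on its parent. RSEM, the program whose output was deposited, shares such a read among the genes it fits, so its estimated counts need not be whole. It also gives a posterior SD of each count and an interval for each TPM. The level of that interval is not stated in the tables. TPM, transcripts per 1000000, is the level used below and is scaled by transcript length.

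The label was checked against the annotation and the sequence. The annotation called 44 EEF1A1 copies and 63 GAPDH copies processed, and 5 copies (EEF1A1P31, EEF1A1P32, EEF1A1P48, EEF1A1P49 and GAPDHP76) unprocessed. With the annotated transcript of each copy aligned to that of the parent, 34 of the 48 EEF1A1 copies crossed 6 of the parental exon junctions. In the GAPDH family, 50 of the 64 copies crossed 7. These were the highest numbers in each family. All 5 copies annotated as unprocessed crossed at least 4, but they had 2 to 7 exons in the annotation. The aligned sequence was the annotated transcript, from which any annotated introns were already removed. For a copy with more than 1 exon, crossing therefore cannot show that introns are absent. Only 4 of the 112 crossed fewer than 2. In all, 99 copies had 1 exon in the annotation. The transcribed processed class held EEF1A1P23, GAPDHP72 and GAPDHP74.

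Libraries held 10593491 and 10104118 estimated counts, and a count of 0 allowed a level of up to 0.283 and 0.297 counts per 1000000 (3 counts of each total, for counting error only). Of the kidney markers reported here, UMOD, SLC34A1 and AQP2 had a TPM of 0 in both libraries, SLC12A1, NPHS1 and PAX8 stayed at or below 0.22, and PAX2 had 4.34 and 2.47. LHX1 had no row.

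EEF1A1P5 stood far above the other copies and was nearly identical to EEF1A1. A stretch of 100 coding bases (within 1 parental coding exon) is shown because it holds a base by which reads of EEF1A1P5 and EEF1A1 can be told apart, with the next 2 copies in level and EEF1A1P13 and EEF1A1P3 for contrast. Positions were counted from 1 at the A of the parental start codon, and the stretch covered positions 915 to 1014. Coordinates are those of GRCh37: EEF1A1 at chr6:74228092-74228191 on the minus strand, EEF1A1P5 at chr9:135895787-135895886 on the plus strand, EEF1A1P6 at chr7:22550606-22550705 on the minus strand, EEF1A1P19 at chr5:43495547-43495646 on the minus strand, EEF1A1P13 at chr5:14652422-14652521 on the minus strand and EEF1A1P3 at chr13:28789561-28789660 on the plus strand. Capitals mark bases that differ from EEF1A1.
EEF1A1: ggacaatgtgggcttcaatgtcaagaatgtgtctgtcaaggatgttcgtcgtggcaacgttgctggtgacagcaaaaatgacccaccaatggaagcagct
EEF1A1P5: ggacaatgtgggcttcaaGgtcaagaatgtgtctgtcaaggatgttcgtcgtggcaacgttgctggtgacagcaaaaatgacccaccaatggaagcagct
EEF1A1P6: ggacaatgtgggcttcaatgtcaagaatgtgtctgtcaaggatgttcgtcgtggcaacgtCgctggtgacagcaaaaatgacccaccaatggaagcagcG
EEF1A1P19: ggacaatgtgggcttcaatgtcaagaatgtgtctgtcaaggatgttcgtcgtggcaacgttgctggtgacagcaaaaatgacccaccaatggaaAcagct
EEF1A1P13: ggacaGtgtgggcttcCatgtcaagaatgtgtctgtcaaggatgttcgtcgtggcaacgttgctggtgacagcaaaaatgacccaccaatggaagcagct
EEF1A1P3: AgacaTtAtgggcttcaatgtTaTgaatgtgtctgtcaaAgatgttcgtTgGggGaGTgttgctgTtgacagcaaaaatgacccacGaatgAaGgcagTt
EEF1A1P5 and EEF1A1P19 differed from the parent at 1 of these bases, EEF1A1P6 and EEF1A1P13 at 2, and EEF1A1P3 at 16. The single difference of EEF1A1P5 in the stretch was T933G.

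Over the whole reading frame EEF1A1P5 differed from EEF1A1 at 4 bases, T294C, T720C, T933G and C1094T, with no gap. T294C and T720C left the encoded residue as it was, and T933G and C1094T changed it. The frame of 462 codons was kept without a stop. EEF1A1P6 carried 7 substitutions (G54A, A288G, T294C, G719A, T975C, T1014G and G1063A) and 1 gap at position 520, and its frame stopped after 187 codons. T294C was thus present in both copies. EEF1A1P13 also had 462 codons without an early stop, but its annotated sequence ended there, before any stop codon. Of its codons 26 differed from the parent, of which 17 encoded another residue. Of the GAPDH copies, only GAPDHP69 kept the parental frame of 335 codons, and it had 0 counts in both libraries.

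For GAPDH, a stretch of 80 coding bases (positions 633 to 712, counted in the same way) is shown with 4 copies. It was chosen because the differences of these copies there came closest to their share over the whole alignment. Over the whole alignment GAPDHP35, the copy with the highest level, was 91.6% identical to GAPDH, and GAPDHP1 was 96.2% identical. The copy with the highest level was thus not the copy most like its parent. The GRCh37 coordinates are chr12:6646857-6646936 on the plus strand for GAPDH, chr16:28251305-28251384 on the minus strand for GAPDHP35, chrX:46299437-46299516 on the minus strand for GAPDHP65, chr15:44647516-44647595 on the plus strand for GAPDHP43 and chrX:39646679-39646758 on the minus strand for GAPDHP1. Capitals again mark bases that differ from the parent.
GAPDH: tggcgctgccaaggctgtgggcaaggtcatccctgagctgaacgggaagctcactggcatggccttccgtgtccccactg
GAPDHP35: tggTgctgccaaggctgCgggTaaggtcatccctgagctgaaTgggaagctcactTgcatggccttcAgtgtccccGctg
GAPDHP65: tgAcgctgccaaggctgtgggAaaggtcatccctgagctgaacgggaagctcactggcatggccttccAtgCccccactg
GAPDHP43: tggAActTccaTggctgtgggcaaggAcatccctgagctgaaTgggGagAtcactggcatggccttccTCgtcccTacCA
GAPDHP1: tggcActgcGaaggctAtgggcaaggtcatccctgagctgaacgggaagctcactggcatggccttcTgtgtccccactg
Differences from GAPDH numbered 7 in GAPDHP35, 4 in GAPDHP65, 13 in GAPDHP43 and 4 in GAPDHP1.

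Of the 112 copies, 7 were detected, meaning a TPM of at least 1 in both libraries, which was 6.25% of them against 27.7% of all genes. The EEF1A1 copies EEF1A1P5, EEF1A1P6 and EEF1A1P19 and the GAPDH copies GAPDHP35, GAPDHP62, GAPDHP65 and GAPDHP43 passed. The share was 6.25% in each family and 6.86% (695 of 10125) over all processed pseudogenes, and a difference from that class was not tested. With counts in both libraries there were 37 copies (19 of EEF1A1 and 18 of GAPDH), 24 had counts in 1 library (13 and 11), and 51 had none (16 and 35). For the copies without counts the upper bound of the TPM interval ran from 0.268 to 2.40 for EEF1A1 and from 0.382 to 1.76 for GAPDH, so a low level was not detectable at this depth. In libraries made from many cells, fewer cells with an RNA and less of it per cell cannot be told apart.

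**Figure D1:**
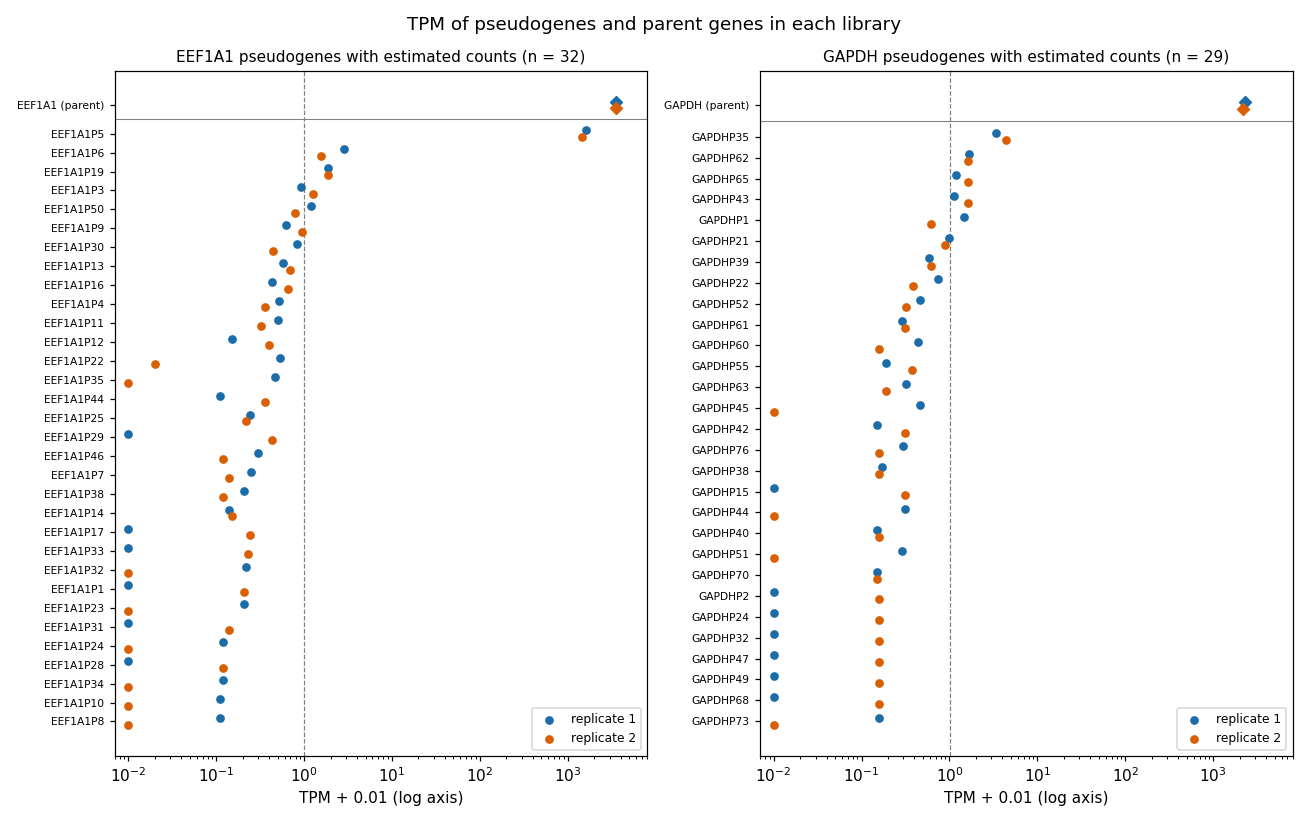
TPM + 0.01 on a log axis (horizontal) of each copy with estimated counts, for the EEF1A1 family (left, n = 32) and the GAPDH family (right, n = 29), with 1 point per library, the parent as a diamond on top, and a dashed line at a TPM of 1. EEF1A1P5 lies beside its parent above 1000, and every other copy in both panels lies below 5.

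EEF1A1P5 (ENSG00000196205, chr9:135894873-135896261, plus strand, 1 exon, in no other gene) was assigned 17743 reads in replicate 1 and 15517 in replicate 2, as estimated counts. Its TPM was 1619 and 1466, a mean of 1543 ± 108 (SD, n = 2). It ranked 6 among the 10125 processed pseudogenes and 67 among all 57736 genes, and held 4.31% and 4.11% of the TPM of all processed pseudogenes. The posterior SD of its count was 375 in replicate 1 and 358 in replicate 2, which was 2.82 and 2.87 times the square root of the count. The posterior SD was thus larger than the counting error of a count of that size. It had 2 transcripts and a deposited length of 1517 bases, whereas the matched annotation sequence had 1389, and the other transcript was not used here.

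EEF1A1 itself (ENSG00000156508, chr6:74199031-74235310, minus strand) had 39492 and 39618 estimated counts and a TPM of 3575 and 3548, a mean of 3561 ± 18.7 (SD, n = 2). The posterior SD of its count was 376 and 358, nearly the same number of reads as for EEF1A1P5. Of the counts of the pair, EEF1A1P5 received 31.0% in replicate 1 and 28.1% in replicate 2. The paralog EEF1A2, which encodes the elongation factor isoform of neurons and muscle, had a TPM of 124 and 118 and whole counts with a posterior SD of 0. GAPDH (ENSG00000111640, chr12:6643678-6647540, plus strand) had 21014 and 19145 estimated counts, a posterior SD of 49.1 and 44.0, and a TPM of 2327 and 2200.5, a mean of 2264 ± 89.2 (SD, n = 2). Its testis paralog GAPDHS had 3.55 and 0 counts.

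Of the copies tested, EEF1A1P5 was the only one that passed a test for a difference between the libraries beyond sampling of reads. Of 15 copies with a summed count of at least 10, 1 passed an exact two-sided binomial test of rounded counts against TMM-scaled library sizes, against 3.88% (696 of 17920) of all genes tested. At an unadjusted p under 0.05 the count was again 1 copy, beside 13.3% of all genes. The other copies tested had summed counts of 10.7 to 52.6, beside 33260 for EEF1A1P5. At such counts only a far larger difference could have passed, so these copies cannot be called stable. Scaled to a library of 10000000 counts, EEF1A1P5 had 16692 in replicate 1 and 15410 in replicate 2, which was lower by 0.12 on the log2 scale (log2 difference of replicate 2 over replicate 1 −0.12, Benjamini-Hochberg adjusted p = 9.82e-11). EEF1A1 differed the other way, with 37153 in replicate 1 and 39343 in replicate 2 (log2 difference 0.08, adjusted p = 3.37e-13). The sum of the pair was 53845 and 54753 and did not pass (log2 difference 0.02, adjusted p = 0.0951). The test compares 2 libraries, not conditions, and it takes the estimated counts as observed, so the posterior SD is not part of it. What share of the difference of EEF1A1P5 came from the sharing of reads with EEF1A1 was not tested.

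**Figure D2:**
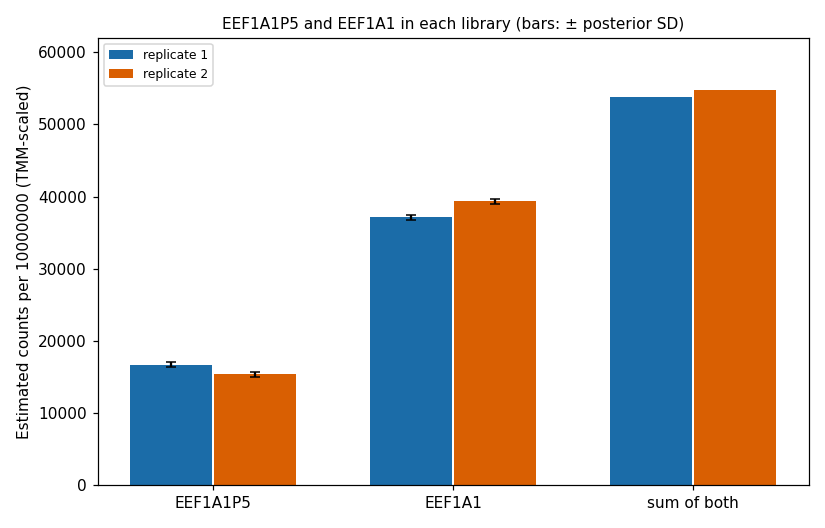
Estimated counts per 10000000 after TMM scaling (vertical) of EEF1A1P5, EEF1A1 and their sum in replicates 1 and 2, with error bars of ± 1 posterior SD for the single genes. EEF1A1P5 was lower in replicate 2 (15410 against 16692), EEF1A1 was higher there (39343 against 37153), and the sum differed less on the log2 scale (54753 against 53845).

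The TPM intervals gave the same single copy, with the same limit. For a low copy they were wide, as in EEF1A1P6 (1.32 to 5.78 in replicate 1 and 0.627 to 4.69 in replicate 2). Intervals of the 2 libraries did not overlap for EEF1A1P5 alone of the 112 copies, beside 0.456% (263) of all genes. They ran from 1430 to 1570 in replicate 1 and from 1272 to 1406 in replicate 2. Each belongs to the posterior mean TPM (1500 and 1340), and in each library the TPM value itself lay above the upper bound. For the parent the intervals, from 3224 to 3369 and from 3195 to 3352, overlapped. Over the 7 detected copies the median absolute difference between replicates on the log2(TPM + 1) scale was 0.28, against 0.14 over all detected genes. All of these copies except EEF1A1P5 had a TPM below 5, and the detected genes were not matched to them by level.

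The remaining EEF1A1 copies were low. EEF1A1P6 had 28.1 and 15.0 estimated counts and a TPM of 2.81 and 1.56. Its count carried a posterior SD of 40.3% and 69.4%, so its level was poorly fixed. EEF1A1P5 had 632 and 1034 times the count of EEF1A1P6, although both were over 99% identical to the parent. EEF1A1P19 had 18.5 and 18.0 counts (TPM 1.86 and 1.88), and here the libraries differed by less than the posterior SD of 3.01 and 3.26 counts. Below them, EEF1A1P3 had a TPM of 0.92 and 1.27 and EEF1A1P50 had 1.20 and 0.78, each crossing 1 in a single library. EEF1A1P9 (0.61 and 0.94), EEF1A1P30 (0.83 and 0.43), EEF1A1P13 (0.57 and 0.68), EEF1A1P16 (0.42 and 0.65) and EEF1A1P4 (0.51 and 0.35) complete the 10 highest by mean TPM. None of the 10 other than EEF1A1P5 passed the test between libraries, in which EEF1A1P4 was too low to be included. Of the 32 EEF1A1 copies with counts, 27 had a count that was not whole in at least 1 library.

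In the GAPDH family no copy stood out as EEF1A1P5 did. GAPDHP35 (ENSG00000250982, chr16:28251014-28251989, minus strand, in no other gene) had the highest level, with 23.3 and 29.3 estimated counts and a TPM of 3.37 and 4.40, a mean of 3.89 ± 0.728 (SD, n = 2). Its posterior SD was 0.90 and 0.61 counts, and its TPM intervals (1.99 to 4.58 and 2.73 to 5.72) stayed above 1 in both libraries. GAPDHP62 followed with a TPM of 1.65 and 1.60, but 11.6 and 10.8 counts with a posterior SD of 3.40 and 3.99 left its intervals reaching below 1. It overlaps an exon of ANKRD46, an ankyrin repeat gene with a TPM of 18.4 and 21.2, on the same strand, and how its reads divide with that gene was not tested.

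GAPDHP65 had a TPM of 1.17 and 1.63. GAPDHP43 had 8 and 11 counts, whole in both libraries with a posterior SD of 0, and a TPM of 1.12 and 1.61. No other detected copy had whole counts. GAPDHP1 had a TPM of 1.45 and 0.61, GAPDHP21 had 0.98 and 0.87, GAPDHP39 had 0.58 and 0.60 (4 counts in each library), GAPDHP22 had 0.73 and 0.38, GAPDHP52 had 0.45 and 0.31, and GAPDHP61 had 0.28 and 0.30. The last 3 rested on 1 to 3 counts a library, and none of the GAPDH copies tested passed the test between libraries. Counts were not whole for 14 of the 29 GAPDH copies with counts.

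Summed over the family, the EEF1A1 copies had a TPM of 1632 and 1478, which was 45.7% and 41.6% of the parental TPM (mean 43.7% ± 2.84, SD, n = 2) and 0.155% ± 0.0109 of all TPM. EEF1A1P5 held 99.2% of that sum in both libraries and decided the value: without it the other copies summed to a TPM of 13.4 and 11.6, or 0.374% and 0.327% of EEF1A1. The 64 GAPDH copies summed to 14.8 and 15.1, which was 0.634% and 0.686% of the parental TPM (mean 0.660% ± 0.0369, SD, n = 2). Their leading copy GAPDHP35 held 22.8% and 29.1%. The families without EEF1A1P5 thus had sums within a few TPM of each other.

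Copies of 3 other messenger RNAs, named in the same way, give a scale. Pseudogenes of PPIA, which encodes cyclophilin A, summed to 19.7% and 29.3% of the parental TPM, and 1 of them, PPIAP22 (mean TPM 312), held 92.7% and 97.0% of the sum. Those of HNRNPA1, an RNA-binding protein of splicing, summed to 1.80% and 2.18% with no leading copy above a mean TPM of 7.16. Those of KRT18, an epithelial keratin, reached 22.2% and 20.9%, but of a parent with a mean TPM of only 46.2. By estimated counts, not scaled by length, the PPIA copies had only 8.32% and 12.4% of the parental value. On that measure HNRNPA1 copies had 1.28% and 1.46%, KRT18 copies 18.8% and 18.3%, and EEF1A1 copies 45.3% and 39.4%. A family sum held almost wholly by 1 copy was thus seen in EEF1A1 and PPIA, and was not seen in GAPDH, HNRNPA1 or KRT18. Detected shares were 2.25% of 89 PPIA, 8.11% of 74 HNRNPA1 and 2.99% of 67 KRT18 copies. These differences between families were not tested.

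Likeness to the parent varied widely. Identity over aligned bases ran from 74.2% to 99.7% in EEF1A1 copies (median 88.8%) and from 74.6% to 96.2% in GAPDH copies (median 85.9%). At 95% or above were 7 EEF1A1 copies, namely EEF1A1P5 (99.7%), EEF1A1P6 (99.5%), EEF1A1P13 (98.1%), EEF1A1P12 (97.5%), EEF1A1P11 (97.3%), EEF1A1P9 (97.2%) and EEF1A1P19 (97.0%), and 1 GAPDH copy, GAPDHP1 (96.2%). All 8 had counts in both libraries. GAPDHP65 (94.8%) and GAPDHP59 (93.9%, 267 bases) came next in that family, and GAPDHP59 had no counts. The least alike by this measure, which leaves gaps out, were EEF1A1P49 (74.2%), EEF1A1P48 (75.7%) and EEF1A1P40 (77.8%), all without counts. In the GAPDH family they were GAPDHP34 (74.6%) and GAPDHP53 (74.9%), without counts, and GAPDHP49 (75.3%), with 1 count in replicate 2. With gaps counted the order changed: EEF1A1P40 had 64.5% and EEF1A1P49 71.2%, and GAPDHP53 had 66.1% and GAPDHP34 71.5%. The parental start codon was kept by 25 of the 48 EEF1A1 and 27 of the 64 GAPDH copies.

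Mean TPM and identity had a Spearman's rho of 0.55 across the 112 copies, 0.73 across the 48 of EEF1A1 and 0.37 across the 64 of GAPDH. Copies share the libraries, the parental sequence and in part the reads, so these are descriptions and no p is given.

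**Figure D3:**
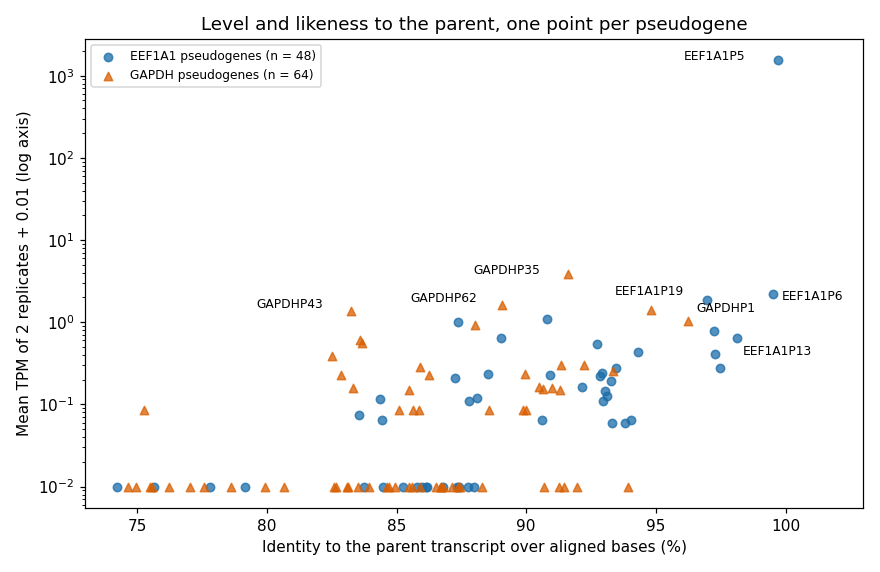
Mean TPM of 2 replicates + 0.01 on a log axis (vertical) against identity to the parental transcript in percent (horizontal), 1 point per copy, circles for EEF1A1 (n = 48) and triangles for GAPDH (n = 64). The row of points at 0.01 holds the copies without counts, EEF1A1P5 sits alone at 99.7% and a TPM of 1543, and EEF1A1P6 at 99.5% lies at 2.19.

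What a 50-base read can tell apart was counted from sequence. Each copy was cut into all its words of 50 bases, the read length, and these were looked up in the GRCh37 genome on both strands and in the parental transcript. The counts of EEF1A1P5, EEF1A1P6 and EEF1A1P13 covered 2 transcripts each, and only 1 of these was cut into words. Of the 1340 words of EEF1A1P5, 151 (11.3%) occurred once in the genome and 1140 (85.1%) were also in the EEF1A1 transcript. For EEF1A1P6 the shares were 22.3% and 74.3%, for EEF1A1P13 54.7% and 32.8%, and for EEF1A1P19 69.8% and 21.3%. Most copies shared few words with the parent: the median share in the parental transcript was 0.23% over EEF1A1 copies and 0% over GAPDH copies. The median share of words found once was 94.4% and 100%. A word across a parental exon junction can be found once in the genome and still be in the spliced parental transcript. These shares can thus overlap, and a word found once does not always tell a copy from its parent. Of the 927 words of GAPDHP35, 99.7% occurred once and 3 were in GAPDH. Words shared with the parent were most frequent in GAPDHP1 (13.6%) and then GAPDHP65 (6.58%) of the 10 highest GAPDH copies.

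**Figure D4:**
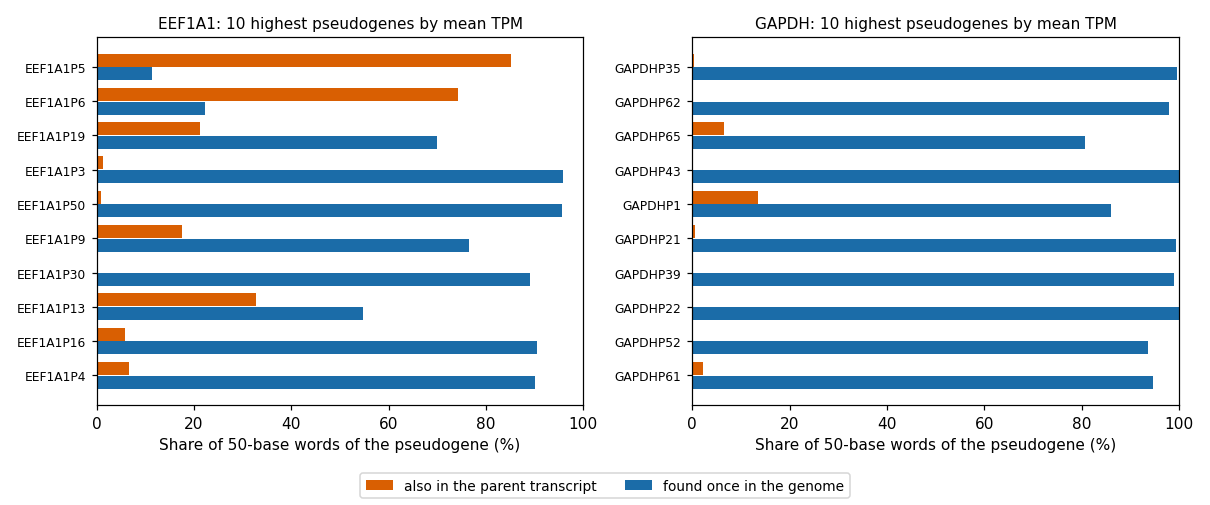
Share of the 50-base words of a copy, in percent (horizontal), that are also in the parental transcript (orange) or occur once in the genome (blue), for the 10 copies of each family with the highest mean TPM. EEF1A1P5 and EEF1A1P6 have more words in the parent than words found once (85.1% against 11.3% and 74.3% against 22.3%), and all other copies shown have the reverse.

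Seen from the parent, 1263 of the 1340 words of the EEF1A1 coding sequence were present in some copy, which left 5.75% in none. Of the 959 words of the GAPDH coding sequence 252 were in a copy, which left 73.7% in none. A 50-base read from the coding sequence thus has an equal match in some copy at most positions of EEF1A1 and at a minority of positions of GAPDH. All 27 EEF1A1 copies with at least 1 word in EEF1A1 had counts (median summed count over both libraries 4.27), against 5 of the 21 with none (median 0). In the GAPDH family it was 10 of 12 (median 2.85) against 19 of 52 (median 0). A read that holds a shared word can be divided between copy and parent, so having counts was not independent of this grouping. The grouping was made after the values were seen and was not tested. Copies with no parental word still reached summed counts of 12.0 (EEF1A1) and 22.4 (GAPDH).

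The copies were spread over the genome, on 21 chromosomes for EEF1A1 (6 on chromosome 1 and 5 on X) and 22 for GAPDH (13 on chromosome 1 and 4 on X). Within the span of another gene lay 22 of the 48 EEF1A1 copies, 12 of them on its strand, and 31 of the 64 GAPDH copies, 13 of them on its strand. Exons were overlapped by EEF1A1P23, GAPDHP62 and GAPDHP52, and otherwise the copies lay in introns. Of EEF1A1 copies on the strand of a holding gene 10 of 12 had counts, against 22 of 36 other copies. For GAPDH these were 5 of 13 against 24 of 51, and neither difference was tested.

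Among the highest copies, several sat in introns of expressed genes on the same strand. EEF1A1P19 lies in C5orf34 (TPM 10.9 and 11.7), EEF1A1P3 in PAN3, a subunit of a deadenylase complex (20.7 and 21.1), and GAPDHP43 in GOLM2 (45.4 and 45.9). EEF1A1P6 lies in STEAP1B (1.92 and 2.49), EEF1A1P30 in RHOXF1 (0.56 and 0.97) and GAPDHP22 in UBAC2-AS1 (1.02 and 1.13), whose levels were low. On the opposite strand, EEF1A1P50 lies in AFF4 (56.2 and 50.6), EEF1A1P4 in AEBP2 (32.9 and 31.6), GAPDHP39 in PIK3CB (22.4 and 16.1), GAPDHP61 in ZNF609 (20.2 and 16.9) and GAPDHP52 in ZDHHC20 (31.2 and 34.7) and LINC00539 (0.16 and 0.55). GAPDHP52 also overlaps an exon of ENSG00000289814 on the opposite strand, a gene that has no row in the tables, and EEF1A1P19 lies within ENSG00000249492 on the opposite strand (2.85 and 3.15). Reads of unspliced host RNA and of a copy cannot be told apart from these values. On the same strand, counting by strand would not separate them. For the opposite strand, no source used here states whether reads were counted by strand. EEF1A1P5, GAPDHP35, GAPDHP65, GAPDHP1, EEF1A1P9, EEF1A1P13, EEF1A1P16 and GAPDHP21 lie in no other gene.

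The authors' table for the pooled reads gave EEF1A1P5 33257 counts, beside 17743 and 15517 in the single libraries. For every other copy the pooled count was within 1.85 (EEF1A1) or 0.42 (GAPDH) counts of the sum of the replicates.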

How the data were processed

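Poly(A)+ RNA of HEK293T cells was sequenced in 2 libraries. Per the labels, the submitters' processing notes name Trimmomatic 0.36, STAR 2.6.1c and RSEM 1.3.1, with builds hg19 and GRCh37.p13. The study's methods name another read counter, but the deposited columns are those of RSEM. The authors deposited estimated counts (reads that fit several genes are divided among them), TPM, and FPKM. FPKM is scaled by length and depth and was used only for an alternative threshold of detection. Posterior means and SDs and the TPM interval bounds are scores that the authors deposited to describe this division. A deposited table of pooled reads was used only as the authors' pooled values.

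GENCODE release 44, lifted to GRCh37, gave symbols and coordinates for 55501 of 57736 identifiers. Members and lists were chosen with earlier results of these data known. Named were the parents, their paralogs EEF1A2 and GAPDHS, the 10 copies of highest mean TPM in each family, those that differed between libraries, the 3 most and 3 least identical, holding genes of the 10 highest, and up to 5 copies without reads. Copies singled out for annotation class, open frame or exon overlap, and those of at least 95% identity, were named after their values were seen.

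Copies were aligned to the canonical parental transcript with Biopython 1.88 (local alignment, match 2, mismatch -3, gap open -5, gap extension -2). Junctions were called crossed with under 40 bases inserted. Of 107 copies with 1 transcript in the tables, 103 had the same length in tables and annotation. Replicates were set against each other with a two-sided exact binomial test (scipy 1.17.1) on rounded estimated counts and TMM-scaled sizes (edgeR 4.0.16, R 4.3.3). Genes needed a summed count of 10, p-values were adjusted by Benjamini-Hochberg over these, and log2 ratios had 0.5 counts added. Scripts were tested on simulated data. Alternatives covered thresholds, normalization, posterior means, counts in place of TPM and leaving out each library.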

Additional observations from a re-analysis of the deposited data

How the results depend on the processing

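The number of detected copies (7) was 36 with a TPM of at least 0.1, 1 with at least 5, and 2 when the lower interval bound had to reach 1. It was 5 with at least 10 estimated counts, 5 with an FPKM of at least 1, 7 with a posterior mean TPM of at least 1, and 8 to 9 with a single library. The EEF1A1 copies' share of TPM (0.155%) was 0.144% from posterior mean TPM, 0.00125% without EEF1A1P5 and 0.148% to 0.163% in single libraries, and their sum was 0.351% of the parent without EEF1A1P5 and 41.6% to 45.7% in single libraries. The GAPDH copies' share (0.00149%) was 0.000958% from counts, 0.0024% from posterior mean TPM, 0.000551% from copies with at least 10 estimated counts in both libraries and 0.00147% to 0.00151% in single libraries, and their sum relative to the parent was 0.495%, 1.15% and 0.244% under these and 0.634% to 0.686% in single libraries. The median absolute log2 difference between replicates was 0.0154 over all copies, of which 51 had no counts and thus a difference of 0. The rank correlation of TPM with identity was 0.449 with posterior mean TPM, 0.714 over the 7 detected copies, 0.621 with the share of words in place of identity, 0.726 and 0.369 in the EEF1A1 and GAPDH families, and 0.459 to 0.528 in single libraries. The number of copies that differed between libraries was 0 among genes with whole counts, where EEF1A1P5 was left out and 1 copy could be tested. It was also 0 when EEF1A1 and EEF1A1P5 were summed, which left the 14 other copies to test. Both settings took out the only copy that had passed, so neither 0 says whether the difference of EEF1A1P5 held. The difference of EEF1A1P5 kept its direction and passed with RLE factors (adjusted p = 1.04e-15), total counts (9.86e-13) and posterior mean counts (3.81e-13). The values without EEF1A1P5, the summed pair and the correlation per family were added after the data were seen. The alternative with RefSeq symbols was not run, since 0 of the 115 RefSeq genes that met the rule carried an Ensembl identifier to match. No paired analysis was possible because both libraries belonged to 1 group. Depth limits the low copies: the 3 detected GAPDH copies after GAPDHP35 rested on 8 to 11.6 counts a library. Other than where a setting took out a copy or took in copies without counts, the cause of these shifts was not tested.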
